A study of Mus musculus with 2 samples.

Results

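The microglia-like genes *Fcrls*, *Htr2b*, *Syngr1*, *Cd5l*, *Slc27a1* and *Hebp1* were followed through the cells of injured skeletal muscle. They are 6 of the 32285 genes of the count tables and were chosen by their measured values, since they were seen among the leading genes of the day 3 macrophages with high *Gpnmb*. Their higher level on day 3 and in those cells is therefore a description and no test of it is given. The mice were wild-type (WT) C57BL/6J males of 14 weeks, whose quadriceps was injured by injection of BaCl2, a salt that kills muscle fibres. Mononuclear cells were taken 1 day (day 1) or 3 days (day 3) later, frozen, thawed and sequenced as single cells with a 10x Genomics 3' kit. Each day had 1 library, pooled from 5 mice, and uninjured muscle was not analysed here. Single libraries allow no test between the days, and the 95% intervals (CI) given hold the error of counting UMIs and nothing of how mice or libraries vary.

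Microglia are the macrophages of the brain. In that organ *Fcrls*, the gene of a Fc receptor-like scavenger receptor, is widely used as a microglial marker, and *Htr2b*, the gene of a Gq-coupled serotonin receptor, is also known from microglia. *Cd5l* encodes a secreted scavenger receptor cysteine-rich protein of tissue macrophages, and its gene is a known target of the oxysterol receptors LXR. *Syngr1* encodes a synaptogyrin, a membrane protein best known from synaptic vesicles. *Slc27a1* encodes fatty acid transport protein 1, which takes up long-chain fatty acids and couples them to coenzyme A. *Hebp1* encodes a heme-binding protein from which the peptide F2L is cut, a ligand of formyl peptide receptors. *Gpnmb*, the gene that marks the macrophages in question, encodes a membrane glycoprotein of phagocytes that handle lipid and dead cells.

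*Fcrls* and *Cd5l* are neighbours in the genome. In GRCm38, *Fcrls* lies on the minus strand at chr3:87250758-87263738 and *Cd5l* on the plus strand at chr3:87357881-87371073, 94.1 kb apart, with 0 annotated genes between them. *Htr2b* lies at chr1:86099026-86111970 on the minus strand, inside *Psmd1* on the plus strand, and *Syngr1* at chr15:80091334-80119501 on the plus strand, where it overlaps *Rpl3* on the minus strand. *Slc27a1* lies at chr8:71568882-71587302 (plus strand) and *Hebp1* at chr6:135137522-135198022 (minus strand). The 4 promoters printed are those of the neighbouring pair and of the 2 genes with the largest day ratios, and all 6 genes had an entry in the RefSeq promoter windows of GRCm38.p6, which hold 250 bases before and 50 after each start. Only bases before the start and outside annotated exons are printed, 5' to 3', and capitals mark the match to GAGGAAG, a motif of the macrophage factor PU.1, or to AGGTCA, the half-site of many nuclear receptors, on either strand. The RefSeq start of *Fcrls* lies inside its longer GENCODE span, so fewer of its bases lie outside exons. *Fcrls* is shown at chr3:87263600-87263677 (minus strand), *Cd5l* at chr3:87357631-87357880 (plus strand), *Htr2b* at chr1:86111981-86112230 (minus strand) and *Syngr1* at chr15:80091084-80091333 (plus strand).
Fcrls: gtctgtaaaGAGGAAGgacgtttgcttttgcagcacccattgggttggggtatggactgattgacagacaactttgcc
Cd5l: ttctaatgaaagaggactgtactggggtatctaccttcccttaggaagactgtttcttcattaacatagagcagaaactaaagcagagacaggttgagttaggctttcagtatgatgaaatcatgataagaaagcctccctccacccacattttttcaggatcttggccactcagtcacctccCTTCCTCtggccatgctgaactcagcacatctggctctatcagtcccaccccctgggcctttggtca
Htr2b: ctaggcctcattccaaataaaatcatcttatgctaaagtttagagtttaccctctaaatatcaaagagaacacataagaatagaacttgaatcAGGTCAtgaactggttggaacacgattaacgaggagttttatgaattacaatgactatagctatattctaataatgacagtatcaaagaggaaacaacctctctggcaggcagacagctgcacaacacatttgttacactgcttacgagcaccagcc
Syngr1: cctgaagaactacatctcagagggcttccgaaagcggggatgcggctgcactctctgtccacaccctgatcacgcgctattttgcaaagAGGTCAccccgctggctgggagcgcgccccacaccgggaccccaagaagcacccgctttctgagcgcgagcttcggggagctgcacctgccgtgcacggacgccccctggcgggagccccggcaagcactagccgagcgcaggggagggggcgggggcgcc

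The 6 genes had 8 windows, since *Slc27a1* had several. The motif GAGGAAG was found in 2 of the 8 windows, of *Fcrls* and *Cd5l*, and in 13.6% of all 32851 windows. AGGTCA was found in 2 of the 8 windows, of *Htr2b* and *Syngr1*, and in 16.3% of all windows. The E-box CACGTG was found in 2 of the 8 windows, of *Slc27a1* and *Hebp1*, and in 7.15% of all windows. AGGTCA repeated after 4 bases, the arrangement known for LXR, was found for 0 of the 6 genes and in 0.0152% of all windows. Repeated after 1 base, the arrangement known for PPAR, it was found for 0 of the 6 and in 0.0396% of all windows, so either count of 0 says nothing particular to these genes. The AP-1 motif TGACTCA, found in 5.20% of all windows, was found for 0 of the 6. These matches describe letters in a window and are not binding sites.

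The deposited counts summed to 74852240 unique molecular identifiers (UMIs, each one counted molecule) on day 1 and 102565783 on day 3. After the filters, 6735 cells of day 1 and 4627 of day 3 remained, with medians of 9389 and 14548 UMIs, and 0 cell barcodes were shared by both libraries. The limit of 7.5% mitochondrial UMIs removed 517 cells of day 1 (7.02%) and 2013 of day 3 (30.3%). The 2 libraries list different possible barcodes, and a change of chemistry cannot be told apart from the day. Clusters were named from marker lists, and 3799 cells of day 1 (56.4%) and 3015 cells of day 3 (65.2%) were monocyte/macrophage-like. On day 1 these cells came mostly from clusters led by *F10*, *Ppbp* and *Gm9733*, and on day 3 from clusters led by *Gpnmb* and *Abcg3*. A cluster of 605 cells on day 1 and 117 on day 3, led by *Il23a*, had few UMIs per cell and stayed unnamed. Of the marker lists, that of neutrophils scored highest in it.

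The microglial label was checked against genes that define microglia among macrophages. *Sall1*, a transcription factor of microglia, had 0 UMIs in the monocyte/macrophage-like cells of both days. *Siglech* had 2 UMIs on day 1 and 7 on day 3, and *Slc2a5*, a fructose transporter gene, had 0 and 7. The other 3 defining genes were present. *Tmem119* was at 6.69 CPM (UMIs of a gene per 1000000 UMIs in all cells of a group together) on day 1 and 40.3 CPM on day 3, the purinergic receptor gene *P2ry12* at 1.72 and 21.6 CPM, and the lysophosphatidylserine receptor gene *Gpr34* at 0.358 and 13.3 CPM. The cells thus held part of the defining list, and they are called macrophage-like here, not microglia.

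Within monocyte/macrophage-like cells, all 6 genes were at least 2-fold higher on day 3 than on day 1. Of the 8231 genes with at least 500 UMIs in these cells, 19.8% were at least 2-fold higher on day 3 and 4.84% at least 2-fold lower, and the genes described were chosen with this contrast known. Their log2 ratios ran from 2.79 to 6.24 with a median of 4.19, beside a median of 0.34 over all 8231 genes. Neutrophil markers summed to 1455 CPM in these cells on day 1 and 372 CPM on day 3, and fibroblast markers to 21.8 and 80.8 CPM. Their part in the ratios was not tested.

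Among the receptors, *Fcrls* was measured on day 1 at 20.9 CPM (19.6 to 22.3) and on day 3 at 288.8 CPM (284 to 294), a 13.8-fold difference. A UMI of *Fcrls* was found in 8.40% of such cells on day 1 and in 57.1% on day 3. *Htr2b* was near the limit of detection on day 1, with 14 UMIs in 9 of 3799 cells, or 0.313 CPM (0.171 to 0.526). On day 3 it had 1153 UMIs in 556 of 3015 cells, or 24.4 CPM (23.0 to 25.9). That is 75.3-fold, with a wide interval on the log2 scale, 5.53 to 7.16, because of the few UMIs of day 1. Both receptor genes were thus low on day 1 and higher on day 3, and only *Fcrls* had a clear level at the earlier time.

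The secreted scavenger gene *Cd5l* stood at 7.54 CPM (6.76 to 8.39) on day 1 and 52.1 CPM (50.1 to 54.2) on day 3, 6.90-fold higher. This was the smallest day ratio of the 6. *Cd5l* UMIs were found in 3.69% of cells on day 1 and 16.2% on day 3. The vesicle membrane gene *Syngr1* stood at 7.81 CPM (7.01 to 8.67) on day 1 and 382.6 CPM (377 to 388) on day 3, 48.9-fold higher, with a UMI in 5.27% and 59.5% of cells. The fatty acid transporter gene *Slc27a1* went from 12.9 CPM (11.8 to 13.9) to 116.5 CPM (113 to 120), or 9.06-fold, with a UMI in 9.58% and 53.7% of cells. The heme-binding gene *Hebp1* went from 3.78 CPM (3.23 to 4.40) to 91.5 CPM (88.8 to 94.3), or 24.1-fold, with a UMI in 3.74% and 48.2% of cells. Since the cells of day 3 were deeper, with a median of 13585 against 11139 UMIs, shares were also taken after each cell was thinned to 3000 UMIs. They were then 3.39% and 35.6% for *Fcrls*, 0.0547% and 4.38% for *Htr2b*, 1.503% and 40.3% for *Syngr1*, 1.48% and 5.43% for *Cd5l*, 3.09% and 22.3% for *Slc27a1*, and 1.04% and 17.1% for *Hebp1*, so each gene kept the order of the days at equal depth.

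**Figure D1:**
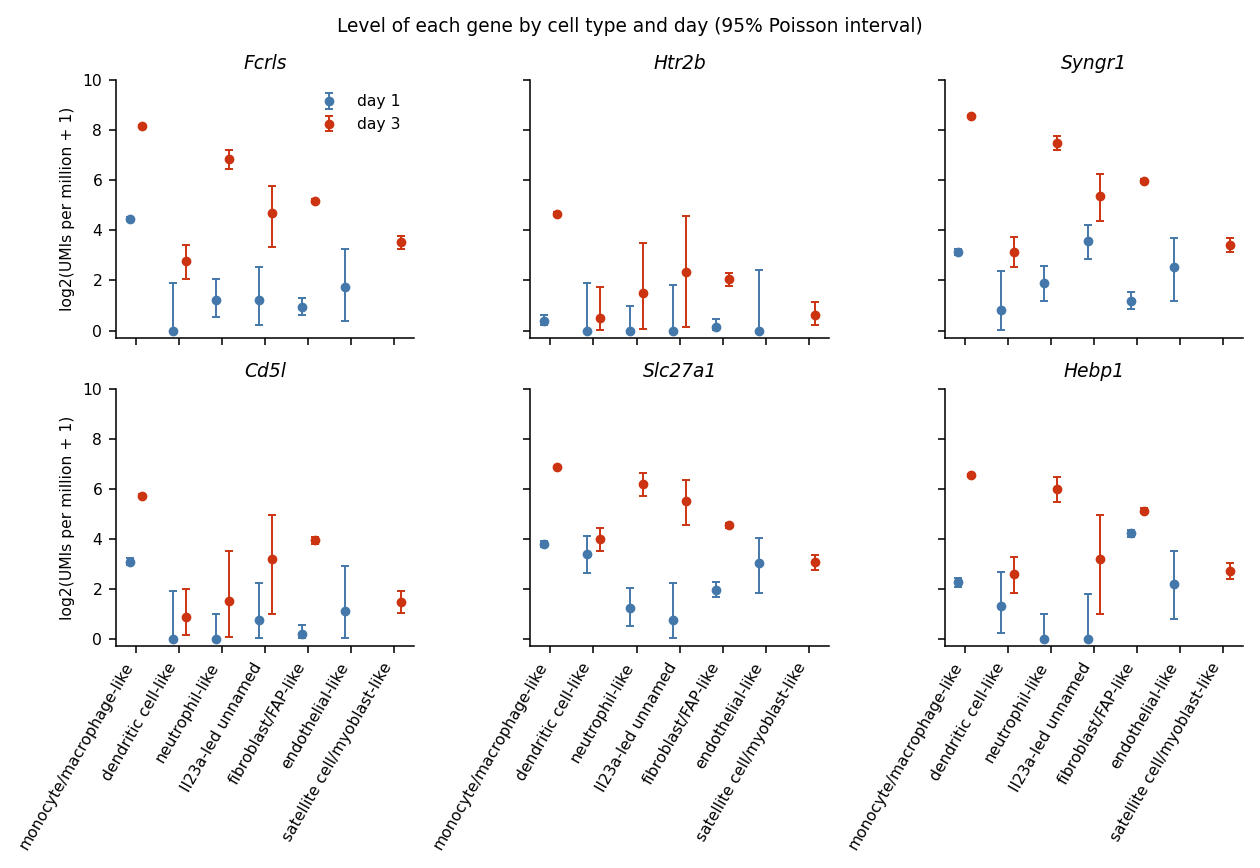
Level of each gene in each cell type, as log2(CPM + 1), for day 1 (blue) and day 3 (red), with 95% Poisson intervals that cover counting error only. The monocyte/macrophage-like cells of day 3 hold the highest point in every panel, and *Hebp1* is the one gene that stands higher in fibroblast/FAP-like than in monocyte/macrophage-like cells on day 1.

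Most UMIs of the 6 genes were in the monocyte/macrophage-like cells. On day 3 these cells held 92.96% of the UMIs of *Fcrls*, 93.3% of *Htr2b*, 91.4% of *Syngr1*, 87.0% of *Cd5l*, 88.8% of *Slc27a1* and 82.6% of *Hebp1*. On day 1 the share ran from 86.4% for *Syngr1* to 98.5% for *Cd5l*, except for *Hebp1*, of which 33.1% was in monocyte/macrophage-like cells while 65.5% was in cells called fibroblast/FAP-like (FAP, fibro-adipogenic progenitors of muscle). *Hebp1* stood at 17.7 CPM (15.9 to 19.7) in the fibroblast/FAP-like cells of day 1, with a UMI in 235 of 654 cells, and at 33.8 CPM (31.5 to 36.2) in those of day 3, with a UMI in 389 of 843 cells. The fibroblast/FAP-like cells came mostly from a cluster led by *Il1rl1* on day 1 (635 cells) and one led by *Sfrp2* on day 3 (835 cells). The day 1 level of *Hebp1* in the fibroblast/FAP-like cells was 468.1% of that in the monocyte/macrophage-like cells, and its day 3 level 36.9%.

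Dendritic cell-like cells, which are close relatives, held few UMIs of the 6 genes on day 3. *Fcrls* had a UMI in 1.47% of the 273 dendritic cell-like cells (median 8375 UMIs), *Htr2b* in 0.366%, *Cd5l* in 0.733%, *Hebp1* in 3.66%, *Syngr1* in 4.40% and *Slc27a1* in 11.0%. At 3000 UMIs per cell, 0.397% of them had a UMI of *Fcrls*, against 35.6% of the monocyte/macrophage-like cells. *Slc27a1* was the exception in this cell type, with 9.65 CPM (5.14 to 16.5) on day 1 and 14.95 CPM (10.5 to 20.7) on day 3, intervals that overlap.

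The fibroblast/FAP-like and neutrophil-like cells of day 3 held UMIs of these genes together with UMIs of macrophage markers. In the fibroblast/FAP-like cells the 6 genes stood at 12.2% to 36.9% of their level in monocyte/macrophage-like cells, with *Hebp1* the highest and *Cd5l* next at 27.6%. The median was 17.6% over the 6 genes and 13.2% over the list of 8 macrophage markers, which includes *Adgre1*, *Csf1r* and *C1qa*. These markers ran from 11.0% to 20.8%, and *Hebp1* and *Cd5l* lay above that range. The 8 markers summed to 1066 CPM, against 8164 CPM in the macrophage-like cells. In the 139 neutrophil-like cells (median 1630 UMIs), the 6 genes stood at 3.57% to 69.1%, with a median of 43.2%, and the 8 markers had a median of 43.6%. None of the 8 macrophage markers was at 0 in either cell type, and their part in these levels was not tested. Barcodes with at most 100 UMIs, read as free RNA, held 104.6 CPM of *Fcrls* and 151.2 CPM of *Syngr1* on day 3. At the free RNA share of 1.44% estimated from fibroblast UMIs (*Col1a1*, *Col1a2*, *Col3a1* and *Dcn*), this came to 1.51 and 2.18 CPM in the monocyte/macrophage-like cells, where both genes were above 280 CPM.

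Clustering the monocyte/macrophage-like cells alone gave 11 subclusters, and the 6 genes were left out of the genes that formed them. Each subcluster is called by its leading gene, and the one with the highest score of *Cd9*, *Cd63*, *Fabp5*, *Gpnmb*, *Spp1* and *Trem2* is called Gpnmb-high. It was led by *Gpnmb*, *Mmp27*, *Igf1* and *Fabp4*, and held 897 of the 3015 cells of day 3 (29.8%) but 14 of the 3799 cells of day 1 (0.369%). Of the other subclusters with at least 50 cells on day 3, those described were led by *Esco2* with other cell cycle genes (486 cells), by *Bcar3* and *Lpl* (328), by *Cd163* and *Mt2* with heat shock genes (70), by *Il1b* (85), by the interferon-induced gene *Ifi213* (693) and by *Ankrd37* and *Cd74* (109). These groups differed in depth, from a median of 9629 UMIs in the Ifi213-led to 22063 in the Esco2-led cells, with 19132 in the Gpnmb-high cells. A subcluster of 154 cells on day 1, led by *Cstdc4*, had *S100a9* and *Cxcr2*, which are neutrophil genes, among its leading genes, and held 5 cells on day 3.

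The 6 genes did not share 1 order over the 7 subclusters described on day 3. *Syngr1* was highest in the Gpnmb-high cells at 692.3 CPM (680.1 to 704.7), with a UMI in 96.5% of them. It followed at 321.2 CPM in the Bcar3-led and 296.0 CPM in the Esco2-led cells, which overlap in their intervals, and was lowest of the 7 in the Ankrd37-led cells at 46.45 CPM, which overlaps the Il1b-led cells at 58.2 CPM. *Htr2b* was highest in the Gpnmb-high cells too, at 47.6 CPM (44.4 to 50.9), then at 18.1 CPM in the Esco2-led and 17.5 CPM in the Bcar3-led cells, which also overlap. In the Cd163-led cells *Htr2b* had 0 UMIs in 70 cells, and in the Ankrd37-led cells 0 in 109. By a limit of 3 counts this allows a UMI in up to 4.29% and 2.75% of these cells, which limits detection at this depth and not the share of cells that express the gene.

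*Hebp1* was likewise highest in the Gpnmb-high cells, at 144.8 CPM (139 to 151), with the Esco2-led cells at 89.4 CPM and the Bcar3-led cells at 75.2 CPM, all apart in their intervals. *Slc27a1* was flatter at the top. It stood at 154.7 CPM (149 to 161) in the Gpnmb-high, 142.3 CPM (135 to 149) in the Esco2-led and 136.4 CPM (126 to 147) in the Bcar3-led cells, and each of these overlaps its neighbour. *Cd5l* was at 97.6 CPM (93.1 to 102) in the Gpnmb-high and 76.5 CPM (60.4 to 95.6) in the Cd163-led cells, which overlap, though the latter value rests on 77 UMIs in 9 cells.

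*Fcrls* did not follow the others. Its highest level on day 3 was in the Cd163-led cells, at 395.3 CPM (357.5 to 436.2), which overlaps that of the Gpnmb-high cells at 363.9 CPM (355.0 to 372.9). The Esco2-led cells followed at 328.6 CPM, the Bcar3-led at 269.8 CPM and the Il1b-led at 245.8 CPM. These 5 are the subclusters highest in *Fcrls* itself, and over them it stayed within 1.61-fold, where *Syngr1* ranged 11.9-fold. In the Ifi213-led cells *Fcrls* was lower, at 159.1 CPM. Over all 7 subclusters *Fcrls* ranged 4.14-fold and *Syngr1* 14.9-fold. Of the 7 subclusters, the Ankrd37-led cells had the lowest level of each of the 6 genes, tied at 0 UMIs with the Cd163-led cells for *Htr2b*. *Fcrls* stood at 95.4 CPM in them, *Slc27a1* at 22.0 CPM, *Hebp1* at 24.5 CPM and *Cd5l* at 1.69 CPM, with 2 UMIs. Except for *Fcrls*, these intervals overlap those of the next subcluster in the order.

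**Figure D2:**
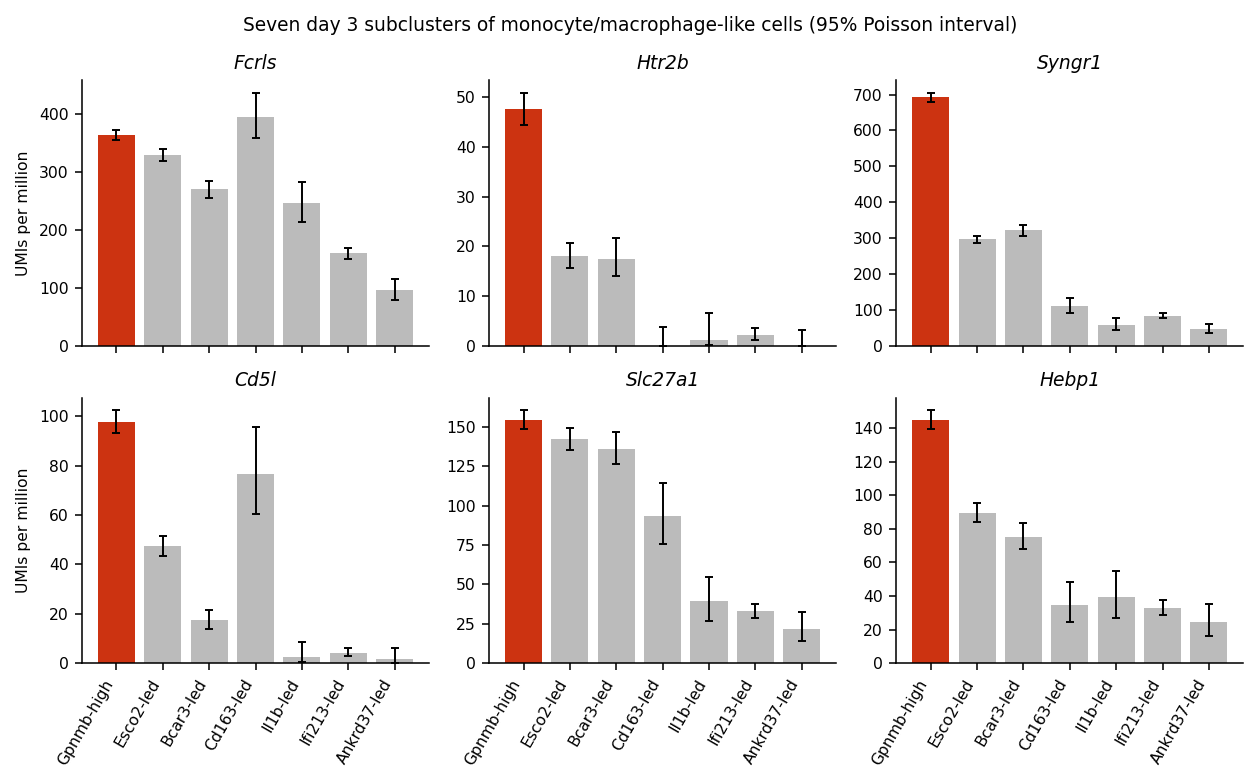
CPM of each gene in the 7 subclusters of monocyte/macrophage-like cells described on day 3, with 95% Poisson intervals (1 library, counting error only) and the Gpnmb-high subcluster in red. *Syngr1*, *Htr2b* and *Hebp1* peak in the Gpnmb-high cells, *Slc27a1* is nearly level over the first 3 bars, and the *Fcrls* bar is as high in the Cd163-led cells.

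Set against the other monocyte/macrophage-like cells of day 3, 4 of the 6 genes were at least 2-fold higher in the Gpnmb-high cells. Of 7156 genes with at least 500 UMIs, 1.22% were at least 2-fold higher in the Gpnmb-high cells and 5.0% at least 2-fold lower. The genes were chosen from this contrast, so the count is not read against that share. *Htr2b* stood at 47.6 against 10.7 CPM (log2 ratio 2.15, 95% CI 1.97 to 2.35), *Cd5l* at 97.6 against 25.04 CPM (1.96, 1.84 to 2.09), *Syngr1* at 692.3 against 198.5 CPM (1.80, 1.76 to 1.85) and *Hebp1* at 144.8 against 59.9 CPM (1.27, 1.19 to 1.36). By size of the ratio these took ranks 2, 6, 10 and 39 of the 7156 genes. The remaining 2 genes were higher by less than 2-fold, *Slc27a1* at 154.7 against 93.8 CPM (0.72) and *Fcrls* at 363.9 against 244.2 CPM (0.58), with ranks 194 and 318. Several of the 6 ratios depended on how the cells were grouped or weighted. That of *Htr2b* was 0.97, under 2-fold, with each library clustered on its own, and that of *Hebp1* 0.96, also under 2-fold, with a finer clustering (resolution 1.2). At that resolution the ratio of *Fcrls* was -0.15 and with each library clustered on its own that of *Slc27a1* was -0.17, while with every cell thinned to 3000 UMIs they were 1.03 and 1.17.

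The genes were also described in single cells without clusters, by the *Gpnmb* UMIs of the same day 3 cells. *Gpnmb* also marks the subcluster from which the genes were chosen, so these levels restate that contrast and do not support it. The 2965 monocyte/macrophage-like cells of day 3 with at least 3000 UMIs were thinned to 3000 and ordered by their own *Gpnmb* UMIs: 1692 had 0, 673 had 1 to 3, 342 had 4 to 7 and 258 had 8 or more. *Syngr1* stood at 101.7, 461.9, 669.8 and 836.6 CPM over these 4 bins, each apart from the next. *Cd5l* stood at 9.06, 59.0, 87.9 and 131 CPM and *Hebp1* at 37.0, 93.2, 134.7 and 160.8 CPM, and *Htr2b* at 6.50, 26.8, 28.3 and 45.4 CPM. *Slc27a1* levelled off, with 61.1, 135.3, 156.2 and 136.2 CPM, the last 3 of which overlap in their intervals. *Fcrls* was highest in the middle, with 220.4, 339.0, 327.1 and 233.5 CPM, and the cells richest in *Gpnmb* (200.6 to 270.2) overlapped those with none (207.7 to 233.8). The lipid receptor gene *Trem2*, a gene of disease-associated microglia, went up from 466.3 to 1298 CPM over the same bins. The microglial genes *Tmem119* and *Cx3cr1* went the other way, from 50.04 to 25.9 CPM and from 164.7 to 107.7 CPM.

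**Figure D3:**
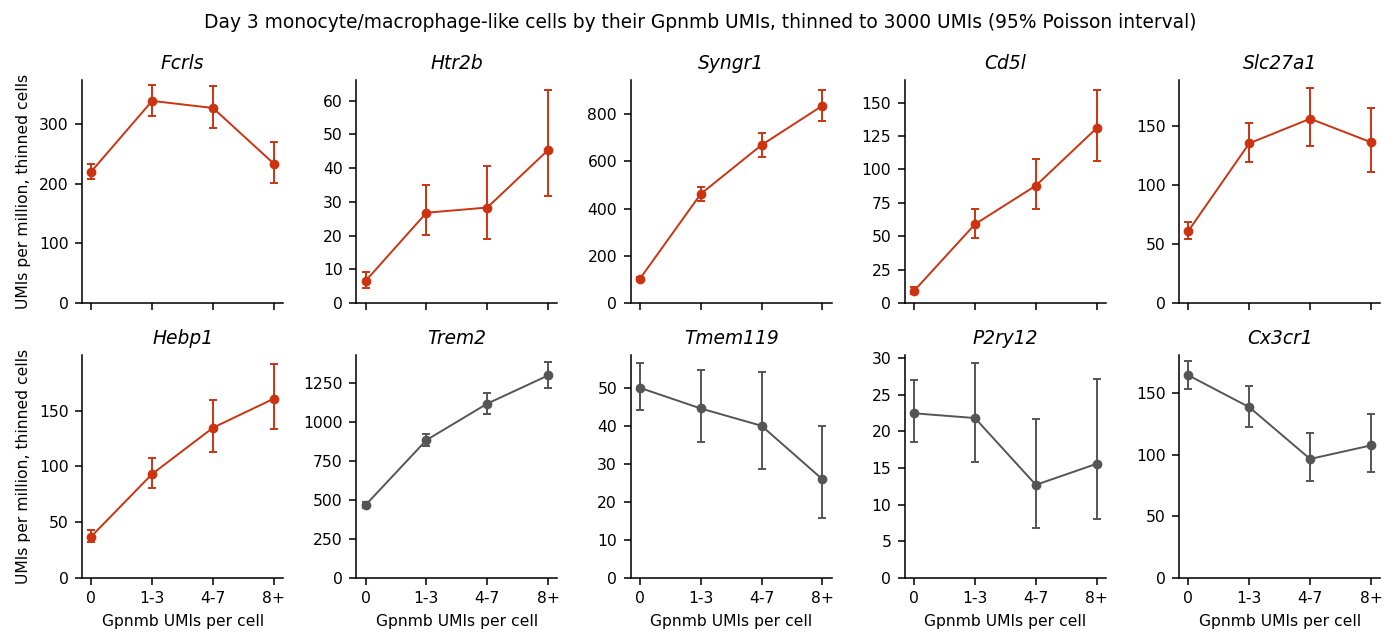
CPM of the 6 genes (red) and of *Trem2*, *Tmem119*, *P2ry12* and *Cx3cr1* (grey) in day 3 monocyte/macrophage-like cells thinned to 3000 UMIs, binned by their *Gpnmb* UMIs (0, 1 to 3, 4 to 7, 8 and over), with 95% Poisson intervals. *Syngr1*, *Cd5l*, *Htr2b* and *Hebp1* are highest in the last bin, and *Fcrls* peaks in the middle bins.

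The day difference was also present inside subclusters. Of the 11 subclusters, 6 held at least 50 cells of both days, and Gpnmb-high was not among them. *Fcrls*, *Syngr1* and *Hebp1* were higher on day 3 in 6 of these 6, with intervals of the log2 ratio above 0, and *Slc27a1* in 5 of 6. An interval above 0 is another bar than the 2-fold used elsewhere. The share of all genes that pass it in these subclusters is not given, so these counts are not read as particular to the 6 genes. In the Bcar3-led cells *Fcrls* stood at 49.8 CPM on day 1 and 269.8 CPM on day 3, *Syngr1* at 37.0 and 321.2 CPM, *Slc27a1* at 55.0 and 136.4 CPM and *Hebp1* at 12.8 and 75.2 CPM. In the Il1b-led cells, whose leading genes are inflammatory, *Fcrls* stood at 6.07 CPM on day 1 and 245.8 CPM on day 3. *Cd5l* was higher on day 3 in only 2 of the 6, the Bcar3-led (5.14 and 17.5 CPM) and the Cd163-led cells (6.38 and 76.5 CPM). The latter day 3 value rests on 77 UMIs in 9 of 70 cells. The share of Cd163-led cells with a UMI of *Cd5l* was 5.195% (3.00 to 8.30) on day 1 and 12.9% (6.05 to 23.0) on day 3, which overlap. In the Ankrd37-led cells *Cd5l* stood at 4.25 CPM (2.80 to 6.19, 27 UMIs) on day 1 and 1.69 CPM (0.205 to 6.10, 2 UMIs) on day 3, which also overlap. *Htr2b* was higher in 1 of the 6, the Bcar3-led cells, with 4 UMIs on day 1 and 86 on day 3, and the others held at most 15 UMIs of it on either day. No gene was lower on day 3 with an interval below 0 in any of the 6.

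**Figure D4:**
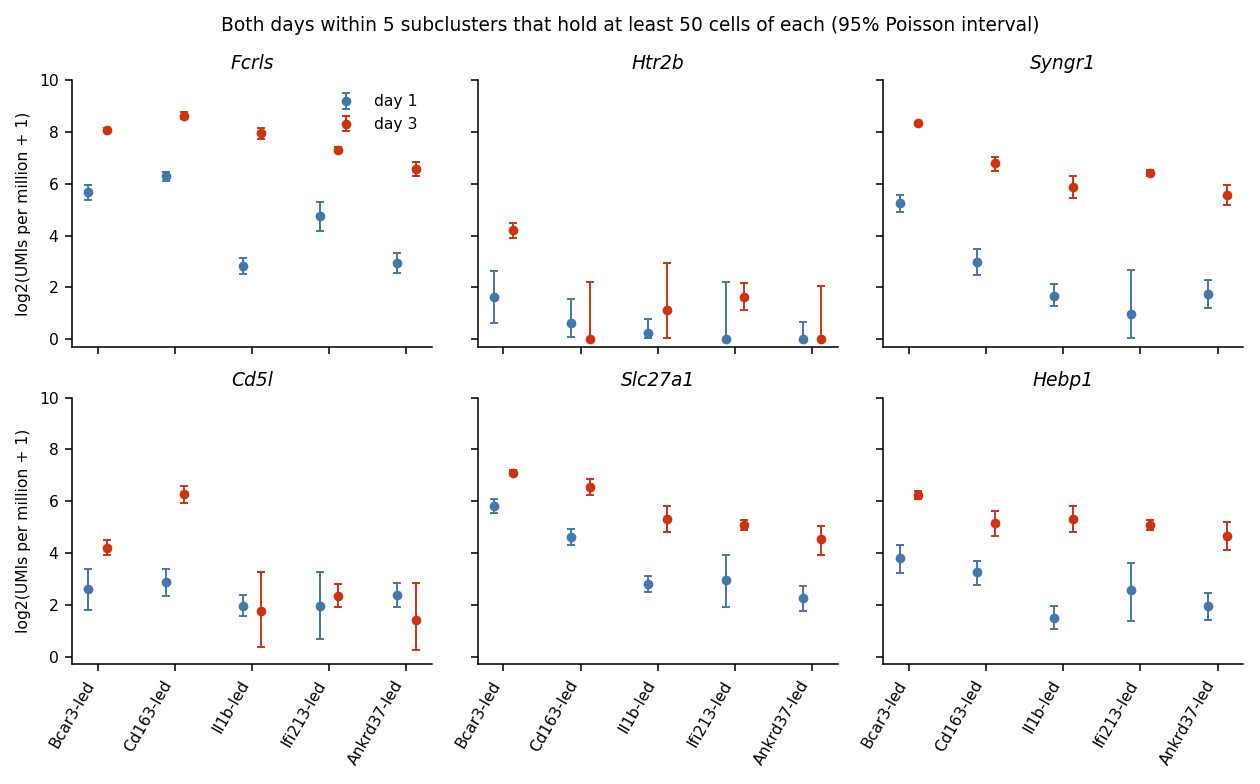
Level of each gene as log2(CPM + 1) on day 1 (blue) and day 3 (red) within 5 of the 6 subclusters that held at least 50 cells of both days, with 95% Poisson intervals. *Fcrls*, *Syngr1* and *Hebp1* stand higher on day 3 in all 5, while *Cd5l* overlaps between days in 3 of them.

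Day 1 had its own order. The highest level of *Fcrls* on day 1 was in the Cd163-led cells, 77.4 CPM (68.7 to 86.8), and that of *Cd5l* in the Ppbp-led cells, 19.0 CPM (16.3 to 22.1), whose leading genes include *Pf4*, *Arg1* and *Mrc1*. *Syngr1*, *Slc27a1* and *Hebp1* were highest on day 1 in the Bcar3-led cells, at 37.0 (28.9 to 46.6), 55.0 (45.0 to 66.4) and 12.8 CPM (8.31 to 19.0). In those 159 cells *Gpnmb* was at 180.8 CPM, against 33.4 CPM over all monocyte/macrophage-like cells of day 1.

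Single Gpnmb-high cells of day 3 rarely held all of the genes at a fixed depth. After thinning to 3000 UMIs, 4.49% of 891 such cells had none of the 6 genes, 36.9% had 3 or more and 1 cell had all 6, with a mean of 2.18 genes per cell. Over all monocyte/macrophage-like cells the mean was 0.106 genes on day 1 and 1.25 on day 3, and 90.4% and 35.6% of cells had none. Within the Gpnmb-high cells the genes were found together about as often as the product of their shares: the ratio of the 2 was between 0.83 and 1.16 over the 15 pairs. Correlations of the thinned UMIs ran from -0.06 to 0.08 across these 891 cells, which in sparse counts is no finding. *Cd5l* stood out by its spread over cells. At full depth 296 of 897 Gpnmb-high cells had a UMI of it, the 90 cells with the most held 83.2% of its UMIs, and 1 cell held 78. For the other 5 genes the 90 cells with the most held between 25.2% (*Syngr1*) and 47.3% (*Htr2b*).

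The related genes of each family had few UMIs, differed by less than 2-fold between the days, or were lower on day 3. Of the 6 fatty acid transport proteins, *Slc27a1* was the one at least 2-fold higher on day 3, *Slc27a4* stood at 16.4 CPM on day 1 and 11.5 CPM on day 3, and the other 4 had at most 15 UMIs on either day. Of 17 genes for serotonin receptors and serotonin handling, *Htr2b* was the one with at least 500 UMIs. *Tph1*, the rate-limiting enzyme of serotonin synthesis outside the brain, had 94 UMIs on day 1 and 0 on day 3, and the receptor gene *Htr7* had 120 and 24. In the same cells the mast cell and basophil markers summed to 7.65 CPM at first and 0.0636 CPM later, with 5 of the 6 at 0 on day 3, and their part was not tested. Of the synaptogyrins and synaptophysins, *Syngr2* stood at 111.3 and 146.1 CPM and *Sypl* at 119.2 and 127.9 CPM, both within 2-fold, and *Syngr3*, *Syngr4*, *Syp* and *Synpr* had at most 37 UMIs. Of the 6 Fc receptor-like genes, *Fcrls* was the one with at least 500 UMIs, and *Fcrl1*, which lies next to *Cd5l* on chromosome 3, stood at 3.13 and 6.17 CPM.

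Among the scavenger receptor cysteine-rich genes, *Cd163*, the hemoglobin receptor gene, went against *Cd5l*, with 62.9 CPM on day 1 and 11.3 CPM on day 3. The formyl peptide receptor genes, of which *Fpr2* encodes a receptor of F2L, were lower on day 3, where *Hebp1* was higher. *Fpr1* stood at 31.3 CPM on day 1 and 2.56 CPM on day 3, and *Fpr2* at 32.1 and 7.93 CPM. Both are also known from neutrophils, whose markers summed to 1455 and 372.1 CPM in the same cells, and the part of those markers was not tested. Of the 12 LXR receptors and targets, 11 had at least 500 UMIs, and 6 of them were at least 2-fold higher on day 3 and 0 lower: the receptor gene *Nr1h3*, the cholesterol exporter gene *Abcg1*, *Mylip*, *Apoe*, *Pltp* and *Mertk*. The median log2 ratio of the 11 was 1.31, against 0.34 for all genes tested. Of all genes tested, 19.8% were at least 2-fold higher on day 3 and 4.84% at least 2-fold lower. In the Gpnmb-high cells 5 of the 11 were at least 2-fold higher than in the other cells of day 3 and 0 lower, among them *Abca1* at 199.3 against 85.0 CPM and *Abcg1* at 109.0 against 46.6 CPM. Of the 11 PPAR receptors and targets, 8 had enough UMIs, and 4 were at least 2-fold higher on day 3: *Pparg*, *Fabp4*, *Angptl4* and *Acadm*. In the Gpnmb-high cells 2 of 7, *Fabp4* and *Cd36*, passed 2-fold. Of all genes tested, 1.22% were at least 2-fold higher in the Gpnmb-high cells and 5.0% at least 2-fold lower. Both lists were chosen with earlier results of these data known.

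The wider microglial lists, chosen with earlier results of these data known, split between the comparisons. Of all genes tested, 19.8% were at least 2-fold higher on day 3 and 4.84% at least 2-fold lower. In the Gpnmb-high cells these shares were 1.22% and 5.0%. On day 3 against day 1, 3 of the 3 defining genes with enough UMIs, 8 of 10 other homeostatic genes and 9 of 18 genes of disease-associated microglia were at least 2-fold higher, and *Csf1* of the last list was 2-fold lower. Of the 20 genes of that list, 1 is not analysed here. The homeostatic genes included *Cx3cr1*, at 6.31 and 140.2 CPM, and *Olfml3*, at 5.26 and 90.8 CPM, and 0 of the 10 were 2-fold lower. Between the Gpnmb-high and the other cells of day 3 the picture was different. There 1 of 3 defining genes (*Gpr34*) and 12 of 17 genes of disease-associated microglia passed 2-fold, and the 10 homeostatic genes had a median log2 ratio of 0.06. The 12 included *Cd9*, *Cd63*, *Fabp5*, *Gpnmb*, *Spp1* and *Trem2*, which picked the subcluster, and besides them *Apoe* at 15050 against 4658 CPM, *Igf1* at 129.4 against 32.7 CPM, *Ctsb*, *Ctsd*, *Ctsl* and *Lgals3*. *Tmem119* was at 36.3 against 42.6 CPM, *Cx3cr1* at 139.4 against 140.7 CPM and *P2ry12* at 23.1 against 20.8 CPM. These 2 comparisons share the day 3 cells.

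**Figure D5:**
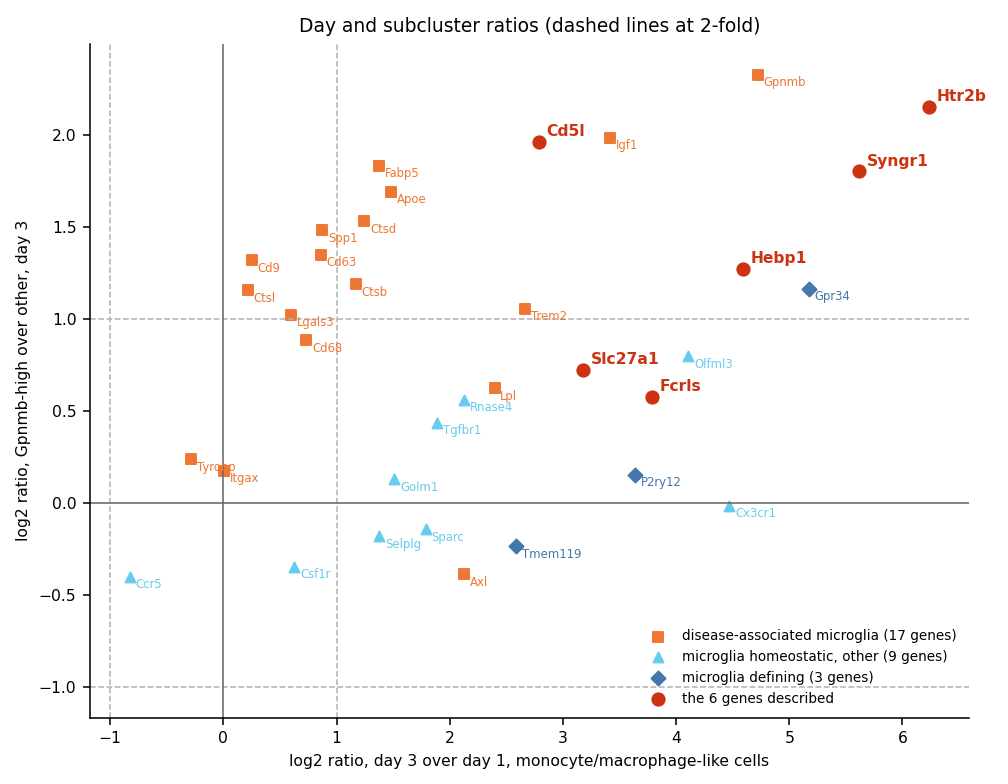
Log2 ratio of day 3 over day 1 in monocyte/macrophage-like cells (x axis) and of Gpnmb-high over other cells of day 3 (y axis) for the 6 genes (red) and the microglial lists, each point 1 gene with at least 500 UMIs in both comparisons, dashed lines at 2-fold. *Htr2b*, *Syngr1*, *Cd5l* and *Hebp1* lie above 2-fold on both axes beside *Gpnmb*, *Igf1*, *Gpr34* and others, and *Fcrls* and *Slc27a1* lie above it on the x axis alone.

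Likeness was measured as Pearson's r of log2(CPM + 1) over 27 groups, the cell types and subclusters of either day with at least 50 cells. The groups come from 2 libraries and share their day and depth, so r is a description. The 6 genes were chosen as leading genes of the day 3 *Gpnmb* macrophages, which are among the groups. A high r with *Gpnmb* or among the 6 genes partly restates that choice. The gene most like *Syngr1* was *Gpnmb* (r = 0.92), and the same gene was most like *Htr2b* (r = 0.82). *Cd5l* was most like *Folr2* (r = 0.83), a folate receptor gene of resident macrophages, *Slc27a1* most like the adaptor gene *Blnk* (r = 0.94), *Hebp1* most like *Paox* (r = 0.94) and *Fcrls* most like *Ms4a14* (r = 0.92), with *Siglec1* the third (r = 0.92). Among the 6 genes themselves r ran from 0.60, between *Cd5l* and *Hebp1*, to 0.88, between *Fcrls* and *Slc27a1*. The neighbours *Fcrls* and *Cd5l* had r = 0.74.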

How the data were processed

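For both libraries the authors deposited unfiltered counts (UMIs of each gene in each barcode), neither normalized nor reduced to cells. Their processing notes name Cell Ranger 5.0.0 and mm10, and the file header names Cell Ranger 4. The 7367 (day 1) and 6640 (day 3) barcodes richest in UMIs entered, if they had at least 1000 UMIs, at least 200 genes and at most 7.5% mitochondrial UMIs. Doublets were kept, since the automatic threshold of Scrublet marked 2 and 0 cells.

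Counts were normalized with SCTransform (Seurat 5.3.0, sctransform 0.4.2, R 4.3.3) on 10 PCs of 3000 variable features at resolution 0.8, leaving out naming markers and the 6 genes. All monocyte/macrophage-like cells were then normalized and clustered again. A cluster took the name of the marker list with the highest score, if at least 3 of its markers were raised. CPM carry exact Poisson and shares Clopper-Pearson intervals at 95%. A count of 0 is given with a limit of 3 counts. For log2 ratios, 0.5 was added to both counts, with exact binomial intervals. Genes with at least 500 UMIs and groups of at least 50 cells were compared, and calls are at 2-fold.

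The 6 genes and the gene lists were chosen with earlier results of these data known. Besides them, the text names genes of these lists and those most like each of the 6. The score was limited to markers found in at least 10% of the cells of a cluster after a first naming had been seen. Ratios were also computed on counts simulated with counting error only. Such data hold no variation between cells, mice or libraries, so they say nothing about it. Some genes, and a subcluster called by one of them, are not reported here. Promoters came from RefSeq (GRCm38.p6) and gene positions from GENCODE (GRCm38). Python 3.11.15, numpy 2.4.6, scipy 1.17.1, pandas 2.3.3 and scanpy 1.11.5 were used.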

Additional observations from a re-analysis of the deposited data

How the results depend on the processing

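No paired analysis was possible because each day had 1 library and its mice differ. The 14 alternatives took other barcodes as cells, set the mitochondrial limit at 15%, removed doublets, clustered at a resolution of 0.4 or 1.2, on 20 PCs, after log-normalization, with markers among the features or by library, named or selected cells otherwise, averaged single cells, thinned them to 3000 UMIs or subtracted free RNA. All 6 genes were at least 2-fold higher on day 3 than on day 1 in monocyte/macrophage-like cells in each of the 14 alternatives, with log2 ratios from 2.31 for *Cd5l* to 7.65 for *Htr2b*. In the Gpnmb-high cells of day 3, the 13 alternatives that give this comparison put between 3 and 6 genes past 2-fold, against 4. *Syngr1* and *Cd5l* passed it in 13 of 13, from 1.37 to 2.21 and from 1.49 to 2.86. *Htr2b* passed it in 12 of 13, with 0.97 when clustering was done by library, and *Hebp1* in 12 of 13, with 0.96 at a resolution of 1.2. *Fcrls* ran from -0.15 to 1.03 and *Slc27a1* from -0.17 to 1.17, and the cause was not tested. In the main setting 19.8% of all genes tested were at least 2-fold higher on day 3, and 1.22% in the Gpnmb-high cells. These shares are not given for the alternatives, so the counts of the 6 genes are not read against them. With 1 library for each day, no alternative speaks to the variation between mice.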

Other observations

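The mitochondrial limit left out cells that the report did not use and that entered only the alternative with a limit of 15%. Under it, the added monocyte/macrophage-like cells numbered 61 on day 1 and 385 on day 3. They come from the same libraries and are not replicates. In the added cells of day 3 *Fcrls* stood at 227.2 CPM (95% CI 211.0 to 244.2), *Syngr1* at 167.2, *Slc27a1* at 83.6, *Hebp1* at 45.4, *Cd5l* at 33.3 and *Htr2b* at 9.94 CPM. In those of day 1 *Fcrls* was at 60.03 CPM (34.3 to 97.5) and the other 5 genes had 0 UMIs, which by a limit of 3 counts allows up to 11.3 CPM. Of the added day 3 cells, 45 fell in the subcluster with high *Gpnmb* of that alternative clustering. *Fcrls* was at 543.5 CPM (484.1 to 608.2) in these 45 cells and 160.6 CPM (145.7 to 176.6) in the other 340, a log2 ratio of 1.76. Over all day 3 cells of the alternative clustering the ratio was 0.64. It was 0.58 in the main clustering, which forms its own subcluster with high *Gpnmb*. The difference between the added cells and those under the limit was not tested.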
